A study of Mus musculus with 12 samples.

Results

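Myelin RNA of young adult mice, taken at postnatal day 75 (P75), was compared directly with myelin RNA of aged mice, taken at 24 months. The comparison used the 3 libraries of P75 and the 3 libraries of 24 months, 6 of the 12 libraries of a series that also sampled P18 and 6 months. Its members were 14634 of 21937 listed genes, those whose normalized read count averaged 10 or more across the 12 libraries. All mice were wild-type males of the strain c57Bl6/N. The study states individual brains for the 6-month libraries. The titles of the P75 and 24-month libraries give replicate numbers only, which were taken here as separate mice. Light membranes, rich in myelin, were separated from the rest of the brain on a density gradient, and the RNA that came with them was sequenced. The material was a biochemical fraction and not a sort of cells, so RNA of any cell that came along with the membranes was counted too. In such a bulk sample, a larger number of cells of a type and more RNA per cell cannot be told apart. No label named a batch. The 3 libraries of an age carried neighbouring identifiers, so age cannot be told apart from any difference in preparation between the ages.

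Myelin is the multilayered membrane that oligodendrocytes wrap around axons. Its compact part is held together by myelin basic protein and other membrane proteins, and the mRNA of myelin basic protein is known to be carried along processes to the sheath and translated there. The sheath is kept for long periods and slowly renewed, with a large demand for cholesterol and galactolipids. In the aged brain, white matter is known as a place where microglia, the resident phagocytes, take up myelin debris into lysosomes and change their expression.

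The normalized read count is the number of reads on a gene's exons divided by the size factor of the library. It is not divided by gene length. Reads on genes numbered 20299052 to 24097818 at P75 and 21565600 to 24541436 at 24 months, and Mbp took 4.76% to 7.03% of them at P75 and 5.34% to 7.52% at 24 months. A log2 change is 24 months minus P75 on the scale of log2(normalized read count + 1), which understates the change of genes with few reads. A gene was called raised or lowered at an adjusted p under 0.1 (limma, Benjamini-Hochberg over all genes tested). With 3 libraries against 3, an exact permutation test of 1 gene could not give a p below 0.1, so single genes were judged in the fit across all genes alone.

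The larger changes were mostly rises. Over all genes tested, 8395 (57.4%) were called, with 4374 raised (29.9%) and 4021 lowered (27.5%), and the median log2 change was close to 0, at -0.004. Which direction was the more frequent depended on the scaling: 3945 were raised and 4554 lowered when each library was scaled to the same total, 3837 and 4877 with quantile normalization, and 4017 and 4542 with a trend on GC content and exon length removed. Among changes over 2-fold the directions were uneven, with 750 genes raised (5.13%) and 140 lowered (0.957%). Over 4-fold, 52 were raised and 7 lowered. The rises made up 84.3% of the calls over 2-fold with the deposited scaling, 79.0% when each library was scaled to the same total and 69.1% with quantile normalization. For 8413 genes (57.5%) every library of 1 age lay beyond every library of the other, with 4302 higher at 24 months (29.4%) and 4111 lower (28.1%). Both ages drew largely on the same transcripts: 10993 genes had a mean over 100 at both ages, 396 at 24 months only and 190 at P75 only, and 835 of the 1000 genes with the highest mean were shared.

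**Figure D1:**
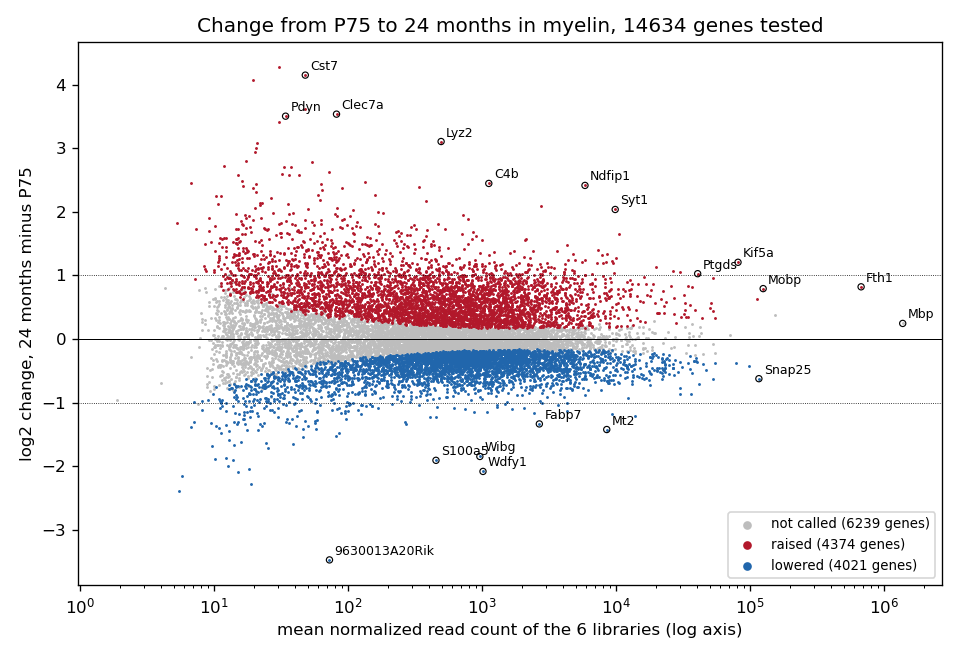
Log2 change from P75 to 24 months (vertical axis, 24 months minus P75) against the mean normalized read count of the 6 libraries (horizontal log axis), 1 point per gene tested. Red points were raised (4374 genes), blue points lowered (4021 genes) and grey points not called, dotted lines mark 2-fold, and circled genes are named in the text; above 2-fold the red points (750) outnumber the blue ones (140).

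Transcripts of activated microglia and of complement stood among the largest rises. The genes named here were called, changed over 2-fold, averaged over 100 at P75 or at 24 months and showed no overlap, which was so for 426 raised and 53 lowered genes. Clec7a, a pattern recognition receptor of phagocytes (chromosome 6 from 129411611 to 129422790, NCBIM37), had 12, 12.1 and 12.2 at P75 and 136, 143 and 178 at 24 months. Its log2 change was 3.54 (limma, standard error 0.20, adjusted p = 3.9e-09). The 3 P75 libraries were close together and every 24-month library stood far above them. Lyz2, the lysozyme of macrophages and microglia (chromosome 10 from 116714390 to 116719377), had 110.2, 92.7 and 99.5 at P75 and 699, 870.4 and 1099 at 24 months, with a log2 change of 3.11 (limma, standard error 0.14, adjusted p = 3.2e-10). Its neighbour Lyz1, which shares much of its sequence so that reads may be split between them, had 57.1, 52.9 and 52 at P75 and 221, 275 and 296 at 24 months. Gpnmb, a membrane glycoprotein of phagocytes loaded with lipid (chromosome 6 from 48986517 to 49020928), had 29.1, 40.8 and 50.9 at P75 and 178, 230.3 and 268 at 24 months and a log2 change of 2.47 (limma, standard error 0.20, adjusted p = 1.5e-07). C4b, a component of the classical complement pathway with a near-identical copy in C4a (chromosome 17 from 34865325 to 34880827), had 267, 337 and 459 at P75 and 1851, 1792 and 2038 at 24 months. The lowest 24-month library of C4b, replicate 2, lay far above the highest P75 library, replicate 3.

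The remaining genes among the 10 largest rises belonged to no immune list. Ndfip1, an adaptor that brings ubiquitin ligases of the NEDD4 family to membranes, was the most abundant of them, with 2102, 1714 and 1744 at P75 and 8970.4, 10245 and 10439 at 24 months, with a log2 change of 2.42 (limma, standard error 0.10, adjusted p = 9.7e-11). Gabbr2, a subunit of the metabotropic GABA receptor, had 131, 108 and 82.9 at P75 and 459.7, 596 and 639 at 24 months. Replicate 1 of 24 months was the lowest of its age. Slc6a20a, a transporter of proline whose span overlaps Ccr9, had 28.1, 19.5 and 40.9 at P75 and 149.6, 167 and 136 at 24 months. Dnase1l2, a DNase gene, had 19, 13 and 29.9 at P75 and 69.3, 111 and 143 at 24 months. A pair of clustered protocadherins, Pcdhb8 (log2 change 2.62) and Pcdhb4 (2.45), completed the group. These adhesion molecules of neurons are encoded by genes of high similarity, so reads may be split among them.

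Among the falls, a noncoding transcript of young oligodendrocytes came first. 9630013A20Rik, a long noncoding RNA gene in the list for newly formed oligodendrocytes, had 128, 91.8 and 184 at P75 and 7.93, 11.9 and 13 at 24 months, with a log2 change of -3.48 (limma, standard error 0.27, adjusted p = 8.7e-08). The lowest P75 library, replicate 2, was far above all 24-month libraries. Wdfy1, an endosomal protein whose span overlaps Mrpl44 (chromosome 1 from 79698837 to 79772718), had 1639, 1619.8 and 1678 at P75 and 424, 386 and 355 at 24 months, with a log2 change of -2.08 (limma, standard error 0.09, adjusted p = 2.3e-10). S100a5, a calcium-binding protein known from olfactory neurons, had 811, 584 and 759 at P75 and 194, 185 and 187 at 24 months. Wibg, a protein that acts on the exon junction complex, had 1312, 1993 and 1243 at P75 and 452, 382 and 402 at 24 months. The P75 libraries of Wibg were spread widely, with replicate 2 the highest, and only genes without overlap of the ages could enter this group. Mt2, a metallothionein that binds zinc and copper, and Fabp7, the lipid-binding protein of radial glia and astrocytes, were the most abundant genes of the group. Mt2 had 9643, 14124 and 13438 at P75 and 6017, 4313 and 3646 at 24 months, and Fabp7 had 3589, 3541 and 4330.2 at P75 and 1117, 1719 and 1777 at 24 months. The others were Mybpc3 (log2 change -1.53), the ciliary gene Efcab7 (-1.48), 9130024F11Rik (-1.33), and 2010002N04Rik (-1.31).

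Transcripts of structural myelin proteins changed in both directions and by less than 2-fold. Of 22 members of the list, all of which passed the filter, 8 were raised, 6 were lowered and 8 were not called, with a median log2 change of 0.11. Over all genes the shares raised and lowered were 29.9% and 27.5%. By reads, Mbp, which encodes myelin basic protein, was the highest gene at both ages. Its normalized read counts were 1598645, 1130485 and 1067179 at P75 and 1793465, 1476129 and 1213612 at 24 months. The libraries of the 2 ages overlapped, and the log2 change of 0.25 (limma, standard error 0.42, adjusted p = 0.65) was not called. Mobp, a basic protein of compact myelin, had 129178, 72930.4 and 78402 at P75 and 174144, 158651 and 139112 at 24 months, with a log2 change of 0.79 (limma, standard error 0.21, adjusted p = 0.0047). All 3 24-month libraries were above the highest P75 library, replicate 1, which lay far above the other two.

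Among components of non-compact myelin, Cnp, encoding a phosphodiesterase of the cytoplasmic channels, had 10448, 11629 and 10880.1 at P75 and 8291, 7569.6 and 8444 at 24 months. Sirt2, a deacetylase of myelin, had 4803, 5004 and 4658 at P75 and 3248, 3189.6 and 3158 at 24 months. Both fell, with log2 changes of -0.44 (adjusted p = 7.5e-04, limma) and -0.59 (adjusted p = 1.4e-05, limma) and no overlap of the ages. Mag, the adhesion protein next to the axon, rose by 0.36 on the log2 scale, whereas Mog, the glycoprotein of the outer surface, had 3199.7, 3114 and 3518 at P75 and 3204, 3050.1 and 3194 at 24 months and was not called. Cldn11, of the tight junctions between turns of the sheath, was not called either (log2 change -0.10). Opalin (-0.68), Tspan2 (-0.39) and Mal (-0.24) fell, and the call of Mal was lost without replicate 1 of 24 months (-0.18) or replicate 3 of P75 (-0.16). Gpr37 (0.67), Cd9 (0.61) and Gm98, the transcription factor gene also known as Myrf (0.42), rose. A pair of septin filament genes was lowered, Sept4 (-0.45) and Sept2 (-0.42), and 3 of the 5 on the list were not called.

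Genes of late oligodendrocytes with other functions also went both ways. Of 18 listed and tested, 8 were raised, 2 of them over 2-fold, and 8 lowered, beside 29.9% raised and 27.5% lowered of all genes. Without replicate 1 of 24 months or without replicate 2 of P75, 5 were raised. Fth1, the heavy chain of the iron store ferritin, was second to Mbp by reads at both ages. It had 524948, 418279 and 498505 at P75 and 1153021, 798462 and 656046 at 24 months, with a log2 change of 0.82 (limma, standard error 0.32, adjusted p = 0.043). The 24-month libraries did not overlap those of P75 but ranged widely, and the call was lost without replicate 1 or 2 of 24 months (0.60 and 0.86) and without replicate 2 or 3 of P75 (0.72 and 0.85). With quantile normalization, which sets each rank to the same value in every library, the change of Fth1 was 0 and not called. Ptgds, the prostaglandin D synthase, had 28544, 27885 and 23956 at P75 and 49774, 57958 and 56048 at 24 months, and Apod, an apolipoprotein, had 11922, 13946 and 11416 at P75 and 25761, 27474 and 28250.3 at 24 months. For both genes the lowest 24-month library stood well above the highest of P75, and the log2 changes were 1.03 (adjusted p = 5.3e-06, limma) and 1.13 (adjusted p = 4.8e-07, limma). Trf, encoding the iron carrier transferrin, rose by 0.86. Qdpr, a reductase that regenerates tetrahydrobiopterin, fell from 53662, 46635 and 53037 at P75 to 35866, 32089 and 26752 at 24 months. Car2, a carbonic anhydrase (-0.50), and Cryab, a small heat shock protein (-0.50), also fell.

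**Figure D2:**
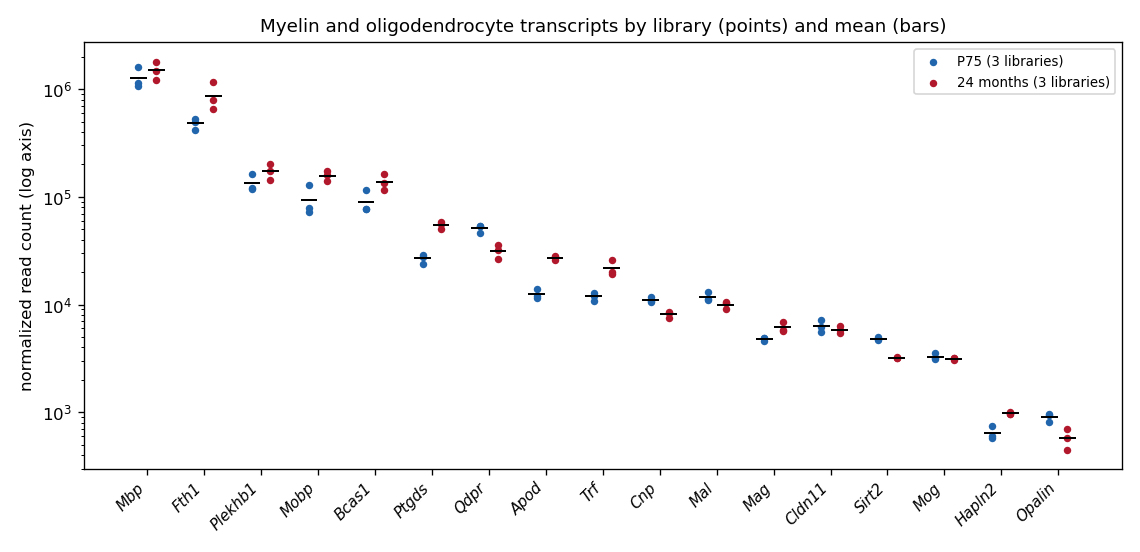
Normalized read counts (vertical log axis) of 17 myelin and oligodendrocyte genes (horizontal axis), with 1 point per library, blue for the 3 P75 and red for the 3 24-month libraries, and a bar for each mean. Mobp, Ptgds, Apod and Trf lie higher at 24 months with no overlap, Qdpr, Cnp, Sirt2 and Opalin lower with no overlap, and Mbp and Mog overlap.

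Some of the most abundant transcripts exchanged places by read count. Mbp, Fth1, Snap25, Plekhb1, Eef1a1, Mobp, Bcas1 and Cpe were among the 10 highest genes at both ages, Ppia at P75 only, and Kif5a and Atp1b1 at 24 months only. Kif5a, a motor that carries cargo along microtubules, had 63497, 47366 and 38789 at P75 and 113314, 117528 and 107895 at 24 months. Atp1b1, a subunit of the sodium pump, had 34624, 37258 and 35260.4 at P75 and 65243, 69989 and 74139 at 24 months. Both rose without overlap, by 1.21 and 0.97 on the log2 scale. Ppia, the chaperone cyclophilin A, had 59413, 68813 and 63362 at P75 and 42867, 41191 and 39807 at 24 months and fell by 0.63 on the log2 scale. Snap25, which encodes a protein of synaptic vesicle fusion, fell from 130496, 150174 and 143621 at P75 to 92028, 92731 and 90084 at 24 months. Plekhb1 (log2 change 0.38, adjusted p = 0.13, limma) and Cpe (0.06, adjusted p = 0.74) were not called, although Plekhb1 was called without replicate 3 of 24 months (0.50) and without replicate 1 of P75 (0.52). Bcas1 rose by 0.63, and Trp53inp2, an autophagy gene, by 0.44, but the call of the latter was lost without each of replicates 1 and 2 of 24 months and replicates 2 and 3 of P75 (0.31 to 0.44) and its change was 0.67 without replicate 1 of P75.

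Transcripts for cholesterol and sphingolipid metabolism were raised more often than lowered. Cholesterol is made in the brain itself, and its supply limits myelin growth. Of 19 genes of cholesterol synthesis, 18 were tested, with 11 raised and 4 lowered (median log2 change 0.37). The shares over all genes were 29.9% raised and 27.5% lowered, so falls on this list were no more frequent than over all genes. Hmgcs1 was listed at 0 in all libraries. Sc4mol, an oxidase of methylsterols, had 1701, 1713 and 2209 at P75 and 3149, 3637 and 3382 at 24 months, with a log2 change of 0.86 (adjusted p = 4.0e-06, limma). The genes lowered were Mvd (-0.51), Pmvk (-0.46), Fdps (-0.31) and Idi1 (-0.26), which follow one another in the mevalonate part of the pathway. The change of Fdps was -0.20 without replicate 2 of P75, and Idi1 lost its call without replicate 3 of either age (both -0.17). Of 16 genes of cholesterol control and transport, 14 were raised and none was lowered (median 0.48). Srebf2, the transcription factor of sterol synthesis, had 768, 683 and 599 at P75 and 1451, 1565 and 1672 at 24 months. Soat1, which esterifies cholesterol for storage, rose by 0.99, Npc1, which exports it from lysosomes, by 0.95, the transporter Abca1 by 0.52 and the carrier Apoe by 0.45.

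Of 18 sphingolipid genes, 13 were raised and 1 lowered (median 0.58), beside 29.9% raised and 27.5% lowered of all genes. The raised members included enzymes that degrade these lipids in lysosomes. Asah1, the acid ceramidase, had 833, 750.1 and 869 at P75 and 1566, 1786 and 1840.2 at 24 months. Arsa, which removes the sulfate of the myelin lipid sulfatide, rose by 0.82, and Psap, the precursor of the activator proteins, by 0.70. Enzymes that make the galactolipids of myelin behaved differently, in that Ugt8a (0.24) and Fa2h (0.08) were not called and Gal3st1, which adds the sulfate, was the lowered member (-0.47). Without replicate 1 of 24 months or replicate 3 of P75, Ugt8a was called raised (0.43 and 0.35). In the list for fatty acids, 10 of 18 were raised, 6 without replicate 2 of 24 months, with Fads2, a desaturase, at 378, 367 and 273 at P75 and 714, 769.8 and 756 at 24 months. Its lowered members were the binding proteins Fabp7 and Fabp5 (-0.78).

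Transcripts of microglia were higher at 24 months across nearly the whole of their lists. Among 19 markers of homeostatic microglia, 17 were raised and 1 lowered, with a median log2 change of 0.79, against 29.9% raised and 27.5% lowered of all genes. Their summed level was 9079.8 to 10826 normalized read counts at P75 and 15238 to 17282 at 24 months. Tmem119, a marker specific to microglia in the brain, had 289, 248 and 293 at P75 and 509, 497 and 519 at 24 months, with a log2 change of 0.88 (limma, standard error 0.10, adjusted p = 4.4e-06). P2ry12, a purinergic receptor of surveying microglia, had 1002, 751 and 1027 at P75 and 1383, 1308 and 1331 at 24 months, and Csf1r, the receptor for the growth factor that microglia depend on, had 765, 751 and 780.5 at P75 and 1158, 1332 and 1495 at 24 months. Cx3cr1, the receptor of a chemokine of neurons, rose by 0.44, Itgam by 0.82, Tgfb1 by 1.18 and Tlr7 by 0.71. Trem2, a lipid receptor, had 329, 343 and 342 at P75 and 686, 778 and 865 at 24 months, and its signalling partner Tyrobp had 761, 771 and 956 at P75 and 1424, 1618 and 1754 at 24 months. Aif1 was the lowered member (-0.26). Its call was lost without replicates 1 or 3 of 24 months or replicate 1 of P75 (-0.16 to -0.27), and the change was 0.07 with a trend on GC content and exon length removed. Sall1, a transcription factor of microglia, was not called.

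The list for activated microglia, genes that these cells express near plaques and damaged myelin, had a higher median. Of 26 tested, 24 were raised, 19 of them over 2-fold, and 1 was lowered, with a median log2 change of 1.61. The shares over all genes were 29.9% raised, 5.13% raised over 2-fold and 27.5% lowered. Cst7, a cystatin that inhibits lysosomal proteases, had 2.0, 3.71 and 8.84 at P75 and 91.1, 89.7 and 92.6 at 24 months, the largest log2 change of the list at 4.15 (limma, standard error 0.35, adjusted p = 2.1e-07). Itgax, the integrin chain CD11c, had 2.0, 6.49 and 3.32 at P75 and 23.8, 41.1 and 47.2 at 24 months, and the ages did not overlap. Cd68, a lysosomal glycoprotein of phagocytes, had 113, 109 and 98.4 at P75 and 313, 329.8 and 399.9 at 24 months. The chemokines Ccl3 and Ccl4 were low at both ages, at 15, 14.8 and 13.3 at P75 and 47.5, 54.1 and 62.9 at 24 months for Ccl3 and 5.01, 4.64 and 9.95 at P75 and 32.7, 36.8 and 34.2 at 24 months for Ccl4, and still did not overlap. Spp1, osteopontin, which other cells of the brain also make, had 1695, 1857 and 2008 at P75 and 3872, 3717 and 3732 at 24 months, and Lpl, the lipoprotein lipase, rose by 0.81. Fabp5 was lowered, and Igf1 was not called with all libraries (0.20) but was without replicate 1 of 24 months (0.31). The list shares Apoe, Ctsz, Cd68, Fabp5 and Igf1 with other lists described here.

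Complement and antigen presentation rose alongside. Complement proteins tag debris and synapses for removal by phagocytes. Of 21 complement genes, 19 were tested, with 17 raised and 1 lowered (median 1.26), beside 29.9% raised and 27.5% lowered of all genes. C1qa, a chain of the recognition molecule of the classical pathway, had 843, 909.6 and 946 at P75 and 1934, 2410.0 and 2615 at 24 months. The other chains, C1qb (1.18) and C1qc (0.96), rose too. C3, the central component, had 41.1, 37.1 and 52 at P75 and 131, 169.8 and 156 at 24 months, its receptor C3ar1 had 33.1, 32.5 and 36.5 at P75 and 114, 143 and 142 at 24 months, and Serping1, the inhibitor of the C1 proteases, rose by 1.55. Cd59a, which guards cells against complement lysis, was the lowered member (-0.70), and Clu, a soluble inhibitor that is abundant in astrocytes, rose by 0.68.

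Of 19 tested genes for MHC class I presentation, which shows peptides of the cell's own proteins, 16 were raised and 3 lowered. The shares over all genes were 29.9% raised and 27.5% lowered. B2m, the invariant light chain, had 3159, 3071 and 3133 at P75 and 5827, 7146 and 6714 at 24 months, and H2-D1, a heavy chain, had 496, 543 and 583 at P75 and 1229, 1543 and 1404 at 24 months. H2-K1 (1.22), the peptide transporter gene Tap1 (1.46) and the immunoproteasome subunit Psmb8 (0.79) rose as well. Reads of the heavy chains may be split among similar genes. The lowered members, Psmb10 (-0.67), Psme2 (-0.27) and Psme1 (-0.20), encode parts of the proteasome. With a trend on GC content and exon length removed, Psme2 and Psme1 were at 0.01 and 0.02 and not called, and Psme1 also lost its call without replicates 1 or 2 of 24 months or replicate 2 of P75 (-0.16 to -0.19). For MHC class II, which phagocytes use to present what they take up, 8 of 9 tested genes were raised and none lowered. Cd74, the invariant chain, had 77.2, 67.7 and 63 at P75 and 202, 305 and 235 at 24 months. H2-Aa and H2-Ab1, whose spans overlap, and H2-Eb1 rose by 1.51, 1.29 and 1.27. The regulator Ciita was not called (-0.01).

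Most markers of lymphocytes were at or near 0 reads at both ages. Of 16 listed, 3 passed the filter, and their summed level was 210.1 to 229.9 at P75 and 288 to 331 at 24 months. Ptprc, the common leukocyte antigen that microglia also carry, rose from 54.1, 45.4 and 47.5 to 104, 117 and 123. Cd3e, of the T-cell receptor complex, had 2.0, 0.930 and 1.11 at P75 and 2.97, 5.41 and 5.55 at 24 months. It did not pass the filter and was not tested.

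Genes induced by interferons were raised with no lowered member. Interferons act through a complex of transcription factors, Stat2 and Irf9 among them, which binds a motif with a repeated GAAA in the promoters of their targets. Of 37 listed genes, 32 were tested, 27 were raised, 11 of them over 2-fold, and 5 were not called (median log2 change 0.73). The shares over all genes were 29.9% raised, 5.13% raised over 2-fold and 27.5% lowered. Lgals3bp, a secreted glycoprotein, had 159, 139 and 117 at P75 and 514, 717 and 649.8 at 24 months, with a log2 change of 2.17 (limma, standard error 0.14, adjusted p = 1.4e-08). Gbp2, a GTPase that attacks the vacuoles of pathogens, had 37.1, 18.5 and 28.7 at P75 and 87.2, 102 and 106 at 24 months. Bst2, which tethers viruses to the membrane, had 101, 106 and 107 at P75 and 259.6, 301 and 276 at 24 months. Oasl2 (1.47), Usp18 (1.70), which shuts off interferon signalling, and the factor Irf7 (1.33) rose over 2-fold too. Ifit1, which binds foreign RNA, had 115, 77 and 70.8 at P75 and 165, 175 and 168 at 24 months, and Rsad2, an antiviral enzyme, had 8.02, 4.64 and 13.3 at P75 and 19.8, 25.9 and 19.4 at 24 months. Of these factors, Irf9 rose by 0.84, whereas Stat2 (0.20) lost its call without any of replicates 1 and 2 of 24 months and replicates 1 and 3 of P75 (0.17 to 0.19). Members not called were Eif2ak2, Ifit2, Irf1, Mx2 and Xaf1. Some genes, Tap1 and Psmb8 among them, stood on the MHC class I list too.

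The promoters of these genes are shown because the motif can be read in them. RefSeq promoter sequences were matched for 27 of the 37 genes, and the 250 bases before the start were searched on both strands for GAAA followed, after any pair of bases, by another GAAA. The motif was present in 10 of the 27 (37.0%) and in 3.46% of the 27025 gene symbols of the promoter set. That set was not limited to the genes measured here. Of the 21 called genes with a promoter, 9 held it. A match is a string of letters and was not tested for binding. The sequences below run 5′ to 3′ on the strand of the gene, from build GRCm38.p6, which is a later build than the one the reads were aligned to. Capitals mark each match, read as TTTC, a pair of bases and TTTC where it lies on the other strand, and overlapping matches run together.
Gbp2, chr3:142620413-142620662, + strand: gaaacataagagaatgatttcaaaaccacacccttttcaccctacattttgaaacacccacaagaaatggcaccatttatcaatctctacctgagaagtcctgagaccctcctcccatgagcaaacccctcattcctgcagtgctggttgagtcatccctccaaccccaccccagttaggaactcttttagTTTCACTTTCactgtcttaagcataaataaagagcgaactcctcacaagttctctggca
Bst2, chr8:71537473-71537722, - strand: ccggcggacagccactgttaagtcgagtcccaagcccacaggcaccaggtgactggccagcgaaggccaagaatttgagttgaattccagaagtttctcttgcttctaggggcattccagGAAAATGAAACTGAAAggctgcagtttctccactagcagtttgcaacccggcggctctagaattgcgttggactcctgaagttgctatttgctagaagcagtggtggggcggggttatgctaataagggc
Ifit1, chr19:34640639-34640888, + strand: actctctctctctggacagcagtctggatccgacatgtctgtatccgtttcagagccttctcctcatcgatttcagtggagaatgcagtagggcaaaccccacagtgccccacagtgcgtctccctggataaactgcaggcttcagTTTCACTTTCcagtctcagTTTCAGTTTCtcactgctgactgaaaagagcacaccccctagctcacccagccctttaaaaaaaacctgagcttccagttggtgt
Rsad2, chr12:26456453-26456702, - strand: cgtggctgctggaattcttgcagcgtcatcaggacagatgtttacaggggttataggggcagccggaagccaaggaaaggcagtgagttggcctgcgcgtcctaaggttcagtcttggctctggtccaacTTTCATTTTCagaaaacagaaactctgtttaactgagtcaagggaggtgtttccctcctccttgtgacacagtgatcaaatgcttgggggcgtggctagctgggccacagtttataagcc
The match nearest the start lay 59 bases before it in Gbp2, 124 in Bst2, 85 in Ifit1 and 120 in Rsad2. Bst2 and Ifit1 each held 2 matches, overlapping in Bst2 and apart in Ifit1.

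**Figure D3:**
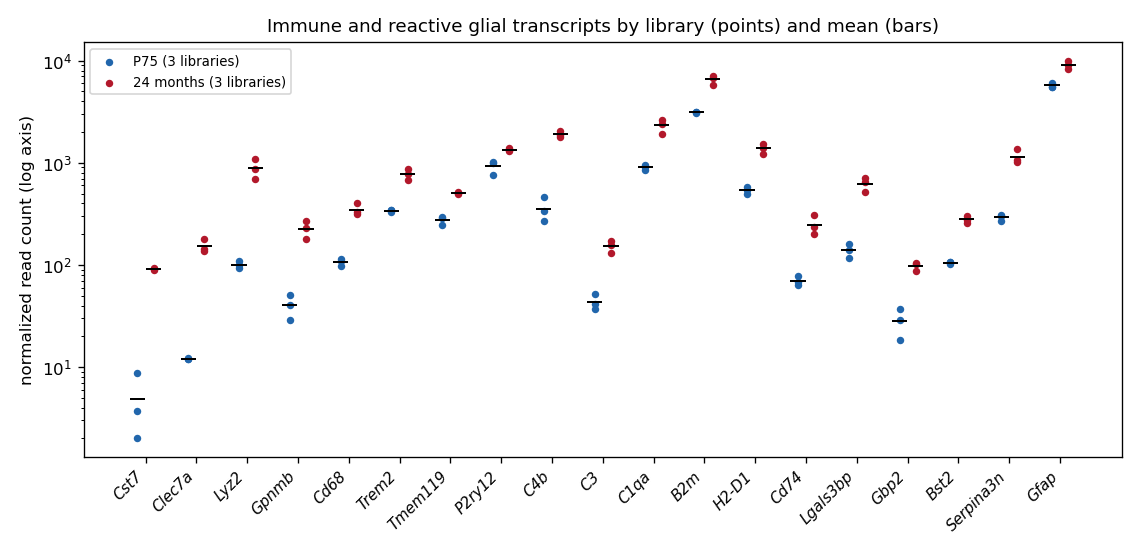
Normalized read counts (vertical log axis) of 19 transcripts of microglia, complement, antigen presentation, interferon response and reactive astrocytes (horizontal axis), with 1 point per library, blue for the 3 P75 and red for the 3 24-month libraries, and a bar for each mean. In each of the 19 the red points lie above the blue ones with no overlap, with the widest distance for Cst7, Clec7a and Lyz2 and the narrowest for P2ry12.

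Reactive astrocyte transcripts rose while general astrocyte markers went both ways. Of 13 tested genes on the reactive list, 11 were raised and 2 lowered, with a median log2 change of 1.73. Serpina3n, a protease inhibitor of reactive astrocytes and oligodendrocytes, had 272, 309 and 302 at P75 and 1022, 1055 and 1364 at 24 months, with a log2 change of 1.95 (limma, standard error 0.11, adjusted p = 3.9e-09). Gfap, the intermediate filament of astrocytes, had 6069.8, 5569 and 5547 at P75 and 9039.7, 8344 and 9865 at 24 months. Lcn2, a secreted iron-scavenging protein, had 3.01, 4.64 and 4.42 at P75 and 25.8, 211 and 38.9 at 24 months, and 1 of its 24-month libraries, replicate 2, was far above the others. The lowered members were the filament gene Vim (-0.35) and Gap43 (-0.39). Of 17 general markers, 8 were raised, 5 without replicate 2 of 24 months, and 5 lowered, beside 29.9% raised and 27.5% lowered of all genes. Their summed level was 120855 to 127377 at P75 and 109510.0 to 119929.6 at 24 months. Slc1a3, a glutamate transporter, had 9324, 7446 and 9179 at P75 and 12164, 14490.5 and 14541 at 24 months, while Slc1a2, the more abundant one, had 36374, 33137 and 37538 at P75 and 30181, 35386 and 34533 at 24 months and was not called, nor was the water channel Aqp4 (0.21), which was called without replicate 1 of 24 months (0.33) or replicate 3 of P75 (0.32). Hgf (1.73), with 6.01, 2.78 and 12.2 at P75 and 15.8, 29.2 and 24.1 at 24 months, and Itga7 (0.37) rose, and Slc4a4 (0.26) rose as well but lost its call without replicate 2 of 24 months and without replicates 1 or 2 of P75 (0.17 to 0.23).

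Lysosomal transcripts were raised throughout the list. Lysosomes break down what cells take up, and both microglia and oligodendrocytes use them. Of 26 tested genes 25 were raised, none was lowered, and all 26 were higher in every 24-month library than in any of P75, with a median log2 change of 0.88. The exception was Naglu (0.27), which was called without replicate 2 or 3 of 24 months (0.36 and 0.33). The shares over all genes were 29.9% raised, 27.5% lowered and 29.4% higher in every 24-month library than in any of P75. Ctsd, the main aspartic protease, had 5065, 5638 and 5919 at P75 and 11663, 12232 and 15294 at 24 months, with a log2 change of 1.23 (limma, standard error 0.11, adjusted p = 2.4e-07). Gaa, which degrades glycogen, had 2487, 2871 and 2455 at P75 and 5867, 5958 and 6674 at 24 months. The membrane proteins Lamp1 (0.99) and Lamp2 (1.10), the proteases Ctsh (1.41) and Ctsz (1.21), and progranulin, Grn (0.85), rose too. The level of Ctsd was highest in replicate 3 of 24 months, and the 3 libraries of P75 lay close together.

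Iron genes were raised more often than lowered. Oligodendrocytes hold much of the brain's iron. Of 14 tested, 7 were raised and 3 lowered, 1 without replicate 2 or 3 of 24 months. The shares over all genes were 29.9% raised and 27.5% lowered. Cp, the ferroxidase ceruloplasmin, had 75.2, 63 and 60.8 at P75 and 227, 301 and 279.6 at 24 months, and its relative Heph had 138, 111 and 197 at P75 and 288, 268 and 198 at 24 months. Steap3 rose by 0.95. Ftl1, the light chain of ferritin, fell by 0.30, opposite to the heavy chain, but its change was -0.04 with the trend on GC content and length removed and no longer called. Tfrc, the transferrin receptor, had 1613, 1313 and 1709 at P75 and 2313, 1539 and 1434 at 24 months and was not called, although it was without replicate 3 of 24 months (0.30).

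Transcripts of ribosomes, respiratory complexes and proteasome were lower at 24 months, by less than 2-fold. Of 77 tested ribosomal protein genes, 70 were lowered and 1 raised, beside 27.5% lowered and 29.9% raised of all genes. The list had a median log2 change of -0.46. Rpl35 had 14802, 15626 and 18416 at P75 and 11788, 9812 and 8587 at 24 months and Rps2 had 19294, 18980.1 and 20985 at P75 and 14108, 12543 and 11674 at 24 months. Of 36 genes of respiratory complex I, 28 were lowered and none raised (median -0.47), with Ndufa6, an accessory subunit, at 6179, 6869 and 8312 at P75 and 4419, 4138 and 3883 at 24 months. Of 38 genes of complexes II to V, 30 were lowered and 1 raised (median -0.43), with Uqcrb of complex III at 5852, 6843 and 6841 at P75 and 4124, 4129 and 3835 at 24 months and Atp5l of the ATP synthase at 11338, 13385 and 14525 at P75 and 8634, 8108 and 7499 at 24 months. The raised member, Sdha (0.18), lost its call without any 1 of the libraries except replicate 3 of P75 (0.16 to 0.20). All 14 proteasome core genes tested were lowered, with a median of -0.51, and Psmb2 was at 2682, 3457 and 2806 at P75 and 1878, 1603 and 1721 at 24 months.

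These genes have short transcripts, and short transcripts as a class were lower at 24 months. When all genes with a known length were split into 5 equal groups, the shortest group, with 39 to 1775 bases of exon, had a median log2 change of -0.23, and 19.5% were raised and 47.1% lowered. In the group with 3550 to 4915 bases the median was 0.08, and 36.2% were raised and 19.4% lowered. The median length of the ribosomal protein genes was 861 bases. When a trend on GC content and length was removed, 27 ribosomal protein genes were lowered and 3 raised, 20 complex I genes were lowered and 3 raised, and 13 genes of complexes II to V were lowered and 2 raised. Of the proteasome genes, 13 were still lowered. No measure of RNA quality was given in the sources used here. In the lists that rose, 23 genes of activated microglia, 26 interferon-stimulated genes and 25 lysosomal genes were raised with the trend removed, beside 24, 27 and 25 as deposited. Of single genes named above, the log2 changes became 0.23 for Mag, 0.24 for Gm98, -0.31 for Cryab, -0.49 for Fabp5, 0.17 and no longer called for Itga7, and -0.12 and no longer called for Fdps.

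**Figure D4:**
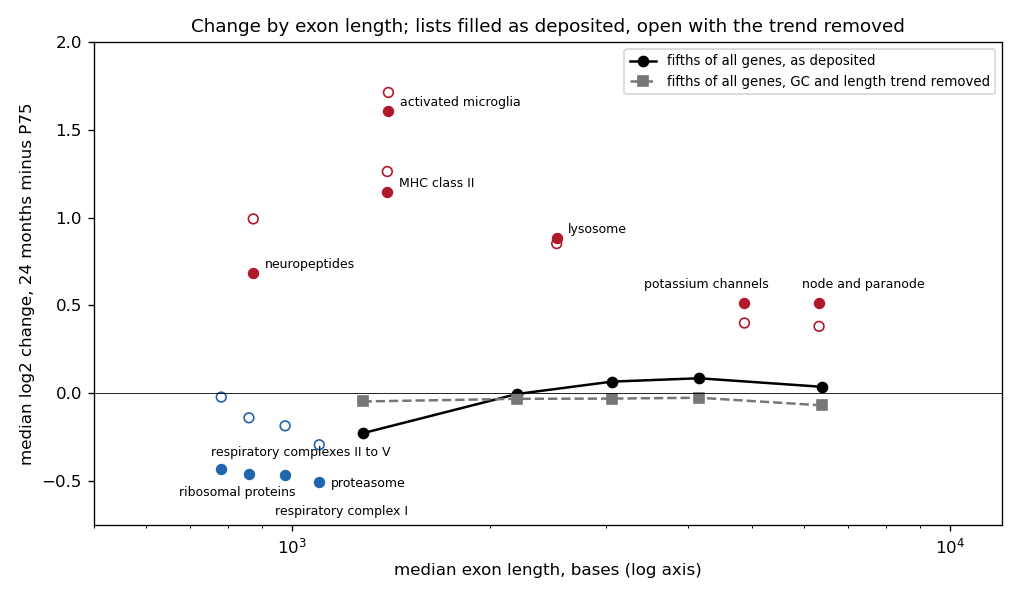
Median log2 change from P75 to 24 months (vertical axis) against median exon length in bases (horizontal log axis) for 5 equal groups of all genes by length, as deposited (black) and with a trend on GC content and length removed (grey squares), and for 10 gene lists, filled as deposited and open with the trend removed. The shortest of the 5 groups lies lowest as deposited (-0.23), and the open points of the 4 blue lists lie nearer to 0 than the filled ones.

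Cell cycle transcripts were mostly lower at 24 months, and several of them had few reads. Of 15 tested, 9 were lowered and 1 raised (median -0.35), beside 27.5% lowered and 29.9% raised of all genes. Mki67, a marker of proliferating cells, had 37.1, 41.7 and 38.7 at P75 and 11.9, 9.73 and 12 at 24 months, with a log2 change of -1.72 (limma, standard error 0.26, adjusted p = 4.8e-05). Top2a, the topoisomerase of dividing cells, had 21, 30.6 and 26.5 at P75 and 12.9, 6.49 and 8.33 at 24 months, and the mitotic kinase Cdk1 had 36.1, 34.3 and 29.9 at P75 and 12.9, 14.1 and 10.2 at 24 months. Ccnb1, its cyclin, had 19, 11.1 and 18.8 at P75 and 2.97, 2.16 and 6.48 at 24 months. Mcm6, a helicase subunit, was the raised gene (0.36) and lost its call without replicates 1 or 3 of 24 months or replicates 2 or 3 of P75 (0.25 to 0.36). Inhibitors of the cell cycle were not raised. Of 5 tested, 4 were lowered, 1 without replicate 2 of 24 months and 2 without replicate 3 of 24 months or replicate 2 or 3 of P75, and Cdkn2c had 88.2, 97.3 and 106 at P75 and 56.5, 58.4 and 41.6 at 24 months. Cdkn2a, known as a marker of senescent cells, had 1.0, 1.85 and 3.32 at P75 and 3.96, 1.08 and 9.26 at 24 months and did not pass the filter.

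For the stages before the mature oligodendrocyte, shares are read beside the 29.9% raised and 27.5% lowered of all genes. Markers of oligodendrocyte precursors were raised for 4 of 12 and lowered for 2, 1 without replicates 1 or 2 of 24 months or replicates 1 or 3 of P75, which for the rises is near the share over all genes. The defining receptor Pdgfra had 655, 623 and 706 at P75 and 769, 767 and 708 at 24 months, and the proteoglycan Cspg4 had 142, 161 and 166 at P75 and 137, 154 and 187 at 24 months. Neither was called with all libraries, but Pdgfra was without replicate 3 of P75 (0.23). Ptprz1, a phosphatase also made by astrocytes, rose by 0.57. For newly formed oligodendrocytes, 5 of 15 were raised, 3 without replicate 2 or 3 of 24 months, and 7 lowered. Besides 9630013A20Rik, the lowered genes included Neu4, a sialidase, with 217, 222 and 242 at P75 and 128, 129.8 and 142 at 24 months, and the transcription factors Nkx2-2 (-0.61) and Tcf7l2 (-0.53). Gpr17 (log2 change -0.42), a receptor of committed precursors, had 292, 279 and 285 at P75 and 136, 221 and 321 at 24 months and was called lowered in the fit with all 6 libraries, but the call was lost without any 1 library except replicate 3 of 24 months. Its change was -0.10 without replicate 1 of 24 months and -0.72 without replicate 3. Bmp4 was not called (-0.13). Tnr, an extracellular matrix protein, was the largest rise, with 60.1, 52.9 and 43.1 at P75 and 154, 158 and 186 at 24 months.

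**Figure D5:**
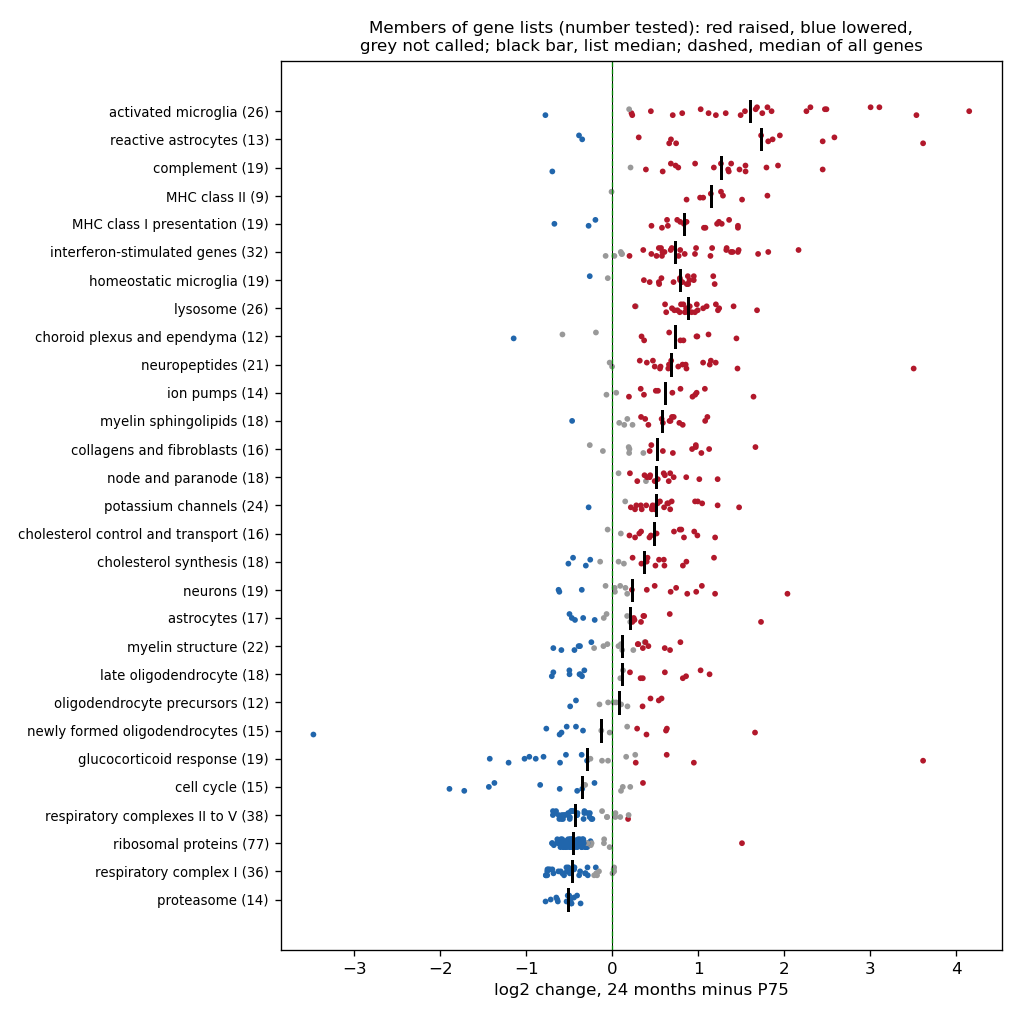
Log2 change from P75 to 24 months (horizontal axis) of the tested members of 29 gene lists (vertical axis, number tested in parentheses), with red points raised, blue points lowered and grey points not called, a black bar at each list's median and a dashed line at the median of all genes (-0.004). Activated microglia and reactive astrocytes have the highest medians (1.61 and 1.73), and ribosomal proteins, respiratory complex I and proteasome lie to the left (-0.46 to -0.51).

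Transcripts of neurons were abundant at both ages and did not move together. Of 19 markers, 10 were raised, 3 lowered and 6 not called, beside 29.9% raised and 27.5% lowered of all genes. Their summed level was 295468 to 330551 at P75 and 301327 to 317717 at 24 months. Syt1, the calcium sensor of synaptic vesicles, had 4142, 3940.5 and 3470.1 at P75 and 13645, 16051 and 17934 at 24 months, with a log2 change of 2.04 (limma, standard error 0.11, adjusted p = 2.0e-09). Slc17a7, a vesicular glutamate transporter, had 6248, 6575 and 4571 at P75 and 12168, 13069 and 14219 at 24 months, and L1cam, an adhesion molecule of axons, had 1107, 1199.8 and 872 at P75 and 1824, 2156 and 2581 at 24 months. Tubb3, a tubulin of neurons (-0.61), and Snap25 (-0.62) fell. Nefl, a neurofilament, had 5828, 5851 and 5399 at P75 and 5927, 6127 and 6983 at 24 months and was not called.

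Genes of the excitable axon were raised in most cases. Of 18 genes of the node of Ranvier and paranode, the gap in myelin and its flanks, 16 were raised and none lowered (median 0.51). The shares over all genes were 29.9% raised and 27.5% lowered. With a trend on GC content and exon length removed, 14 node and paranode genes were raised (median 0.38). Cntnap1, of the axonal side of the paranodal junction, had 1786, 1937 and 1408 at P75 and 2366, 2786 and 2902 at 24 months. Hapln2, a link protein of the nodal matrix that oligodendrocytes make, had 574, 607 and 738 at P75 and 996, 958 and 966 at 24 months. Of 24 potassium channel genes, 22 were raised and 1 lowered, with Kcna1, of the juxtaparanode, at 2247, 2165 and 2302 at P75 and 3353, 3632 and 3739.7 at 24 months and Kcnj3 at 75.2, 73.2 and 78.5 at P75 and 158, 227 and 267 at 24 months. Kcnk2 was the lowered one (-0.27). With the trend removed, 19 potassium channel genes were raised (median 0.40). Kcna4, a channel gene counted with the neuron markers instead, had 476, 397 and 511 at P75 and 665, 759 and 788 at 24 months. Of 14 ion pumps, 12 were raised and none lowered. Atp1b1, described above, was among them.

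Neuropeptide transcripts were raised for 19 of 21 genes and lowered for none (median 0.69), beside 29.9% raised and 27.5% lowered of all genes. The exons of the neuropeptide genes were short (median length 874 bases). Pdyn, the precursor of dynorphins, had 8.02, 1.85 and 5.53 at P75 and 51.5, 54.1 and 84.2 at 24 months, with a log2 change of 3.51 (limma, standard error 0.38, adjusted p = 1.9e-06). Avp and Oxt, the hormones of the hypothalamus that are released in the posterior pituitary, had 194, 118 and 134 at P75 and 492, 348 and 375 at 24 months and 86.2, 79.7 and 112 at P75 and 169, 221 and 221 at 24 months. Markers of brain regions differed by region and are read beside the same shares of all genes. For the striatum, 6 of 10 were raised and none lowered, with the dopamine receptor gene Drd1a at 193, 213 and 249 at P75 and 476, 483 and 622 at 24 months and Drd2 at 39.1, 27.8 and 24.3 at P75 and 91.1, 93 and 96.3 at 24 months. For cortex and hippocampus, 3 of 13 were raised, 1 without replicate 1 or 2 of 24 months or replicate 3 of P75, and 7 lowered, with Emx1 at 278, 305 and 264 at P75 and 158, 128 and 197 at 24 months. For cerebellum and hindbrain, read beside the 29.9% raised and 27.5% lowered of all genes, 4 of 16 were raised and 6 lowered, with Hoxb3 at 81.2, 100.1 and 114 at P75 and 58.5, 55.1 and 45.4 at 24 months. The share of each brain region in the purified fraction was not tested.

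Markers of other cell types are read beside the 29.9% raised and 27.5% lowered of all genes. Those of endothelium and pericytes were called less often than all genes. Of 12 markers of choroid plexus and ependyma, 9 were raised and 1 lowered, and their summed level was 25083 to 30698 at P75 and 44788 to 49367 at 24 months. Ttr, the thyroxine carrier that the choroid plexus secretes, had 24235, 28194 and 22809 at P75 and 46264, 41611 and 45337 at 24 months, and Kcnj13 had 121, 133 and 85.1 at P75 and 216, 232 and 284 at 24 months. Ccdc153, of ependymal cilia, was the lowered marker (-1.15). Of 16 genes of collagens and fibroblasts, 10 were raised and none lowered, with Dcn, a matrix proteoglycan, at 625, 536 and 693 at P75 and 1121, 1282 and 1224 at 24 months and Slc6a13, a GABA transporter of the meninges, at 151, 79.7 and 129 at P75 and 304, 385 and 434 at 24 months. Markers of endothelium and pericytes were mostly not called (11 of 18, with 4 raised and 3 lowered). Without replicate 3 of P75, 8 were raised, and without replicate 2 of P75, 1 was lowered. Vwf rose from 43.1, 54.7 and 64.1 to 152, 176 and 127, and Cldn5, of the tight junctions of the vessels, had 139, 188 and 157 at P75 and 123, 141 and 136 at 24 months and was not called with all libraries but was called lowered without replicate 1 of P75 (-0.37). The 4 haemoglobin genes were listed at 0 in all libraries, and Alas2, of haem synthesis in red cells, had 44.1, 36.2 and 43.1 at P75 and 36.6, 38.9 and 32.4 at 24 months and was not called. What part these cells had in the rises of complement, interferon-stimulated or neuropeptide genes was not tested.

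Genes that respond to glucocorticoids were lowered more often than raised. Of 19, 10 were lowered and 4 raised, beside 27.5% lowered and 29.9% raised of all genes. For 6 of the 19 every 24-month library lay below every P75 library, which was so for 28.1% of all genes. Mt1, like Mt2 a metallothionein, had 15336, 21314 and 21798 at P75 and 10454, 7553 and 7357 at 24 months. Tsc22d3, a mediator of the steroid's action, had 4232, 5076 and 5194 at P75 and 2983, 2766 and 2566 at 24 months, and Hif3a had 130.3, 134 and 145 at P75 and 110.0, 53 and 50.9 at 24 months. Fkbp5, a chaperone of the receptor and a common marker of its activity, had 593, 777 and 679 at P75 and 734, 564 and 589.6 at 24 months and was not called. Replicate 1 of 24 months was the highest of its age for Mt1, Mt2, Hif3a and Fkbp5. Of 19 clock genes 7 were raised and 7 lowered, beside 29.9% and 27.5% over all genes. Per2 rose by 0.46 and Per1 by 0.27, which was 0.05 and not called with the trend on GC content and length removed. Dbp, an output gene of the clock, fell from 670.4, 691 and 605 to 562, 399 and 372, and Arntl (-0.05), a core factor of the clock, was not called. The letters CACGTG, an E-box, stood in 5 of 17 matched promoters of clock genes (29.4%) and in 6.86% of all symbols of the promoter set. All 5 were called, as were 12 of the 17.

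Immediate early genes, which neurons induce within minutes of activity, varied from library to library. Of 20, 9 were raised and 5 lowered, the latter a share near that of all genes. Without replicate 2 of P75, 5 were raised, and 3 were lowered without replicate 1 of either age and 1 without replicate 2 of 24 months. Arc, of synaptic plasticity, had 1703, 1002 and 1251 at P75 and 1281, 2341 and 3839.6 at 24 months, overlapping between the ages, and its log2 change of 0.81 was not called without replicate 2 of P75 (0.63) and became 0.43 without replicate 3 of 24 months and 1.22 without replicate 1. Fos had 659, 312 and 795 at P75 and 576, 677 and 1138 at 24 months and was not called with all libraries, but was without replicate 1 of 24 months (0.68) or replicate 3 of P75 (0.75). Among heat shock proteins, 6 of 21 were raised, 11 without replicate 1 of 24 months, and 3 were lowered. Over all genes 29.9% were raised and 27.5% lowered, so with all libraries the heat shock genes were raised about as often. Hspa5, the chaperone of the endoplasmic reticulum, had 3370.1, 3853 and 4388 at P75 and 6059.8, 11819.9 and 14638 at 24 months, and Calr, a chaperone of the same compartment on the MHC class I list, had 4573, 5486 and 4759 at P75 and 6255, 9527 and 11354 at 24 months. In both, replicate 1 of 24 months was much nearer to P75 than the other two, although it did not overlap. Of 24 antioxidant genes, 13 were lowered and 6 raised, among them Txn1, thioredoxin, with 3288, 3795 and 3748 at P75 and 2052, 2086 and 2028 at 24 months, Sod1, a superoxide dismutase (-0.62, or -0.19 with the trend on GC content and exon length removed), and the secreted peroxidase Gpx3, which rose (1.25).

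The levels at the ages left out of the comparison are given for some of the leading genes. Clec7a had a mean of 10.5 at P18 and 19.4 at 6 months, beside 12.1 at P75 and 152 at 24 months. C3 averaged 20.7 in P18 and 35.3 in 6-month libraries, beside 43.4 at P75 and 152 at 24 months. Both were low at the 3 younger ages. Ndfip1 averaged 1999.9 in P18 and 9401 in 6-month libraries, beside 1854 at P75 and 9885 at 24 months. For Syt1 the P18 mean was 3254 and the 6-month mean 19472, beside 3851 at P75 and 15877 at 24 months. For this pair the level at 6 months was already near that at 24 months. Lgals3bp stood between, with 413 at 6 months beside 139 at P75 and 627 at 24 months. Gabbr2 was higher at 6 months, with 1195 beside 108 at P75 and 565 at 24 months. Of the falls, Wdfy1 averaged 298 at 6 months, beside 1646 at P75 and 388 at 24 months. S100a5 averaged 180 at 6 months, beside 718 at P75 and 189 at 24 months. 9630013A20Rik stood between, with 37.2 at 6 months beside 135 at P75 and 10.9 at 24 months. No test was made on the levels at P18 and 6 months.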

How the data were processed

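The members, gene lists and tests were chosen with earlier results of these data known. RNA of the myelin-enriched membrane fraction was sequenced in 3 libraries per age. According to the labels, the authors aligned reads to mm9 with TopHat2 2.0.8, counted them per gene with HTSeq 0.5.4p1 and divided each library by its DESeq size factor. The deposited normalized read counts, a signal on a linear scale, are not divided by length. The strand setting of the counting was not given in the sources used here, so reads of overlapping genes on opposite strands may be mixed.

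From the deposited table, log2(value + 1) of the 6 libraries was fitted with limma 3.58.1 (trend, R 4.3.3) for genes averaging 10 or more in the whole series, and p-values were adjusted by Benjamini-Hochberg over the 14634 genes. The fit estimated the spread between libraries within an age. Dividing by the value of 1 read gave whole reads for 100% of values (within 0.005 on the deposited scale), on which edgeR 4.0.16 and DESeq2 1.42.0 were run as alternatives. The fits were tested on simulated data. Other alternatives were scalings, pseudocounts, filters, a replicate block, libraries left out and removal of a loess trend on GC content and exon length, which 91.3% of symbols had.

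Coordinates are those of NCBIM37. Genes were named by rule: the 10 largest changes in each direction (over 2-fold, mean over 100, no overlap), the 10 highest at each age, up to 5 called members of each list with a mean over 100 and members a list is known by, genes the study discusses, and genes with 0 reads at 1 age. Members that went against their list or were not called were named after their values were seen. Symbols of 47 lists were matched to the table, with 929 of 935 entries found. Promoters were taken from RefSeq (GRCm38.p6). Some genes are not reported here.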

Additional observations from a re-analysis of the deposited data

How the results depend on the processing

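The excess of rises among changes over 2-fold held under all alternatives, whereas the balance of all calls depended on the scaling. With all libraries and the deposited scaling, 750 genes were raised and 140 lowered over 2-fold. With a mean over 100 required these were 360 and 43, since fewer genes were tested. The genes lowered over 2-fold numbered 56 with a pseudocount of 10, 289 with no filter and 242 with quantile normalization, which gave 541 raised, and the cause was not tested. Leaving out 1 library at a time gave 6962 to 8133 changed genes, 3786 to 4333 raised, 3176 to 3842 lowered, 673 to 888 raised over 2-fold and 121 to 184 lowered over 2-fold. The edgeR test called 8392 genes and DESeq2 7821. Scaling to the same total shifted the median log2 change of all genes from -0.004 to -0.053, and quantile normalization to -0.071. With a mean over 100 required, 3415 genes were raised and 3553 lowered. Of genes called, 52.1% were raised with the deposited scaling, 46.4% with the same total and 44.0% with quantile normalization. Replicate numbers did not pair the mice: the deviations of libraries with the same number correlated at -0.036, -0.073 and -0.090, and a fit with the replicate block called 7952 genes, 4245 raised and 3707 lowered, with 751 raised and 140 lowered over 2-fold.

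Of 4489 values of named genes under an alternative, 4346 kept their direction and side of the threshold, 87 lost the call, 25 gained one and 31 changed sign. Of the genes whose sign changed, 3 were called with all libraries, Aif1, Psme1 and Psme2. With the trend on GC content and length removed, Mog was at 0.022, Fa2h at -0.030, Cspg4 at -0.190 and the called genes Aif1 at 0.068, Psme1 at 0.016 and Psme2 at 0.0091. With quantile normalization, Cpe was at -0.086, Cspg4 at -0.108, Eif2ak2 at -0.018, Irf1 at -0.068 and Mx2 at -0.167. Apart from changes of sign, Fth1, called raised by 0.82, was at 0 with quantile normalization, its rank among the genes being the same in all 6 libraries. Scaled to the same total, Cspg4 was at -0.034 and Mx2 at -0.022, and without Mbp in the total Cspg4 was at -0.022 and Mx2 at -0.010. Ciita was at 0.018 with DESeq2, 0.032 with edgeR and 0.0022 with a pseudocount of 10. When 1 library was left out at a time, the values ranged from -0.048 to 0.297 for Tfrc, -0.021 to 0.2001 for Fa2h, -0.107 to 0.117 for Cspg4, -0.128 to 0.112 for Arntl, -0.174 to 0.184 for Ciita, -0.252 to 0.412 for Mx2 and -0.163 to 0.030 for Xaf1, none of them called with all libraries. A pseudocount of 10 lowered the log2 changes of genes with few reads, from 3.01 to 1.74 for Itgax, 3.51 to 2.27 for Pdyn and -1.89 to -0.92 for Ccnb1. With 3 libraries per age, changes of genes with few reads were the least precise.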

Other observations

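The clustered beta protocadherins, a family whose members differ between single neurons, were chosen for a closer look after their values were seen. Of 22 listed, 19 were tested, 18 were raised, 12 of them over 2-fold, and none was lowered, with a median log2 change of 1.37 (29.9% of all genes were raised and 5.13% raised over 2-fold). Their summed normalized read count was 1804.8 to 1946.7 at P75 and 4011.2 to 4562.6 at 24 months. Pcdhb9, the highest at 24 months, had 206, 272 and 268 at P75 and 821, 849 and 789 at 24 months, and Pcdhb6, with few reads at P75, had 6.01, 5.56 and 2.21 at P75 and 41.6, 66 and 62 at 24 months. For both genes the ages stood apart. Pcdhb22 was not called (0.34), although it was without replicate 3 of P75 (0.46). With the trend on GC content and length removed, or with quantile normalization, 17 were raised. The genes are similar in sequence, and how reads were split among them was not tested.

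Genes of axonal transport and of olfactory neurons were called about as often in each direction as all genes (29.9% raised and 27.5% lowered). Of 27 genes for microtubule motors and tracks, 9 were raised and 8 lowered. Besides Kif5a, the raised ones included the kinesin light chain Klc2, with 2209.7, 2234 and 1627 at P75 and 2981, 3054 and 3282 at 24 months. The lowered ones included the tubulins Tubb2b, with 2024, 2411 and 1949 at P75 and 1209, 1243 and 1469 at 24 months, Tuba1b (-0.67) and Tubb2a (-0.64), which have close copies. Of 19 synaptic vesicle genes, 7 were raised and 3 lowered, and none was lowered without replicate 1 or 2 of 24 months or replicate 2 of P75. Sv2a, a glycoprotein of the vesicle membrane, had 3043, 2938 and 2243 at P75 and 6073, 6778 and 7780.2 at 24 months, and Rims1, of the active zone, rose by 1.13. Of 12 genes of olfactory bulb and nerve, 3 were raised and 3 lowered. S100a5 fell as described, while Cdhr1, a protocadherin of mitral cells, went the other way, with 197, 134 and 242 at P75 and 586, 516 and 634 at 24 months.

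In the insulin and IGF list, 8 of 17 were raised and 3 lowered, 1 without replicate 1 of 24 months. The shares over all genes were 29.9% raised and 27.5% lowered. Igf2r, which takes Igf2 and lysosomal enzymes to endosomes, rose by 0.63, and Igf2 itself had 1168, 871 and 828 at P75 and 1749.5, 1983 and 2101 at 24 months.

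Few genes were present at only 1 of the ages, and those had few reads. No read was found in any P75 library for 509 genes with a read at 24 months, with at most 16 reads over the 3 24-month libraries together. In no 24-month library was a read found for 436 genes with a read at P75, with at most 11 over the 3 P75 libraries together. Among the first were Gabre, Slc26a7, 4930505A04Rik, Apoc4 and Tnfsf8, and among the second Hspb9, 2200001I15Rik, Ska1, Asb17 and Calml3.

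Changes over 2-fold were unevenly spread over abundance. Of 3318 genes with a mean of 10 to 100, 390 were raised and 99 lowered over 2-fold. Of 297 genes with a mean of at least 10000, 7 were raised and 1 lowered over 2-fold, while 82 were called raised and 133 lowered.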
